A study of Homo sapiens with 2 samples.

Results

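The CDK inhibitor genes are the 7 human genes CDKN1A, CDKN1B and CDKN1C of the CIP/KIP family and CDKN2A, CDKN2B, CDKN2C and CDKN2D of the INK4 family, out of 19974 protein-coding genes on chromosomes 1 to 22 and X. They were chosen by name, and a called peak was assigned to one of them where its summit, the base of highest signal, lay inside the gene's RefSeq span or within 20 kb of either end. The data are ChIP-seq peak lists, on the hg38 build, from Ishikawa, a widely used endometrial cancer cell line of human origin. The first population (control cells) carried a negative control lentivirus and the second (TCF19-OE cells) a lentivirus for TCF19 over-expression. Both were incubated with virus for 24 hours, selected with puromycin and immunoprecipitated with the same TCF19 antibody. Which promoter drove the transgene, how many copies integrated and whether an input was sequenced is not stated. Each condition had 1 library, so no difference between the conditions could be tested and none has a replicate check. The design asks where DNA was enriched with this antibody and how that changed with more TCF19.

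CDK inhibitors hold back the cell cycle. Proteins of the CIP/KIP family (p21 from CDKN1A, p27 from CDKN1B, p57 from CDKN1C) bind complexes of cyclins with CDKs, and those of the INK4 family (p16 from CDKN2A, p15 from CDKN2B, p18 from CDKN2C, p19 from CDKN2D) bind CDK4 and CDK6 and keep them from cyclin D, so that RB stays active and E2F targets stay silent. CDKN2A also encodes ARF, an inhibitor of MDM2, from a start of its own far upstream of the p16 start. In many tumours CDKN2A and CDKN2B are lost together in a deletion at 9p21, and a homozygous loss would leave no reads and hence no peaks there.

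All 7 genes had at least 1 summit in their windows in both libraries, where 95.4% of protein-coding genes did so in control cells and 95.3% in TCF19-OE cells, so this count is close to the background. Among genes of at most 30 kb, the size of these 7, the shares were 92.1% and 92.3%. Near annotated transcription starts, within 1000 bp, 5 of the 7 had a summit in each library, and they were the same 5: CDKN1A, CDKN1B, CDKN2A, CDKN2B and CDKN2C. The corresponding share of all genes was 53.5% in control cells and 64.9% in TCF19-OE cells, and 48.8% had one in both. CDKN1C and CDKN2D had no such summit in either library. With a −log10 q-value of at least 2, 4 genes kept a start summit in control cells. The one lost was CDKN1A, whose control summit at the start has a value of 1.72. Over the windows, which cover 316.4 kb once the overlapping CDKN2A and CDKN2B windows are merged, control had 32 summits and TCF19-OE cells 40. The 9p21 region was not empty: it held 10 control and 12 TCF19-OE summits.

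The promoter sequences below show the starts on which these results turn. Each runs from 250 bases before to 50 bases after an annotated start, as given by RefSeq for GRCh38.p14, on the strand of the gene. The CDKN1B and CDKN2C promoters and the ARF start of CDKN2A held a summit of TCF19-OE cells. The p16 start of CDKN2A lay under an interval of TCF19-OE cells and under none of control. CDKN2D is shown as a start that neither library marked. Capitals mark each match, on either strand, of 5 motifs that were searched: GGGCGG (the GC box), CCAAT, TTTGGCGC and TTTCCCGC (forms of the E2F motif) and TGACGTCA (the CRE).
CDKN1B, chr12:12717118-12717417, plus strand: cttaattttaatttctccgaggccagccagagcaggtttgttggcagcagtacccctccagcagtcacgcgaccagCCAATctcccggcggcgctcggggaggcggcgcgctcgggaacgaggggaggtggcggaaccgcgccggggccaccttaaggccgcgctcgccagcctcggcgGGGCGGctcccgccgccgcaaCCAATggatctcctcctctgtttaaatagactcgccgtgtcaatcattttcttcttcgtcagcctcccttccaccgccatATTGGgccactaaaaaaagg
CDKN2A at the p16 start, chr9:21974808-21975107, minus strand: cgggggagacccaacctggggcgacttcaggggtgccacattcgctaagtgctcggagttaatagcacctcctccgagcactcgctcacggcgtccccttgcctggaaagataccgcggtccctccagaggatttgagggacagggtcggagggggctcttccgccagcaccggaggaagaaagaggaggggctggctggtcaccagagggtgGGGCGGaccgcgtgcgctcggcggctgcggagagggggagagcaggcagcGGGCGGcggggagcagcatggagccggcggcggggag
CDKN2A at the ARF start, chr9:21995275-21995574, minus strand: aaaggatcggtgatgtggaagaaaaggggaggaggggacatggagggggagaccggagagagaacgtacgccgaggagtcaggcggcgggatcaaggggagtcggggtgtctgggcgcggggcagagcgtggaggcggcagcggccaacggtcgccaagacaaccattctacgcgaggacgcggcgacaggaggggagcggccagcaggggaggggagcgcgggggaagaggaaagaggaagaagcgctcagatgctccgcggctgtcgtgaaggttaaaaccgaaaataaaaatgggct
CDKN2C, chr1:50968456-50968755, plus strand: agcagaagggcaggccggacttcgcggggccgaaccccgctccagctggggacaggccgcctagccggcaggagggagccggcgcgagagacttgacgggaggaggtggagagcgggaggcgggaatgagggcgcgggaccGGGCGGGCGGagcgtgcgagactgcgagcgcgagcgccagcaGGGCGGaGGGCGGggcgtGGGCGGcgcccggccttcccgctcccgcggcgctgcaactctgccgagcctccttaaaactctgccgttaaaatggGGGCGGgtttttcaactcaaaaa
CDKN2D, chr19:10568930-10569229, minus strand: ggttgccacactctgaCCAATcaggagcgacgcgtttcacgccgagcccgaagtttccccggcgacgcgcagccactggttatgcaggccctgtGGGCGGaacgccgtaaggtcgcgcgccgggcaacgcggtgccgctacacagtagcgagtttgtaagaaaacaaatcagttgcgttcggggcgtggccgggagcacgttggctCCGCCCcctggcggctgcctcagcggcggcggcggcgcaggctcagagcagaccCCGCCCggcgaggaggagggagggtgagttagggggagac

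The listed promoters numbered 9 over 6 of the genes, since CDKN2A has 2, CDKN2C has 3 and CDKN1C has none in the table. GGGCGG was present in 7 of the 9, against 56.3% of the 22199 promoters of protein-coding genes. The 2 without it were the ARF start of CDKN2A and the upstream start of CDKN2C, and summits lay within 1000 bp of both in both libraries. CDKN2C had 6 matches of GGGCGG at its middle start, some of them overlapping, and CDKN1A had 4. CCAAT was found 3 times at CDKN1B and once each at CDKN2D and the downstream start of CDKN2C, where 34.7% of all promoters hold it. None of the 9 held TTTGGCGC, TTTCCCGC or TGACGTCA, which 0.815%, 1.99% and 2.26% of all promoters hold. CDKN2D, with 3 matches of GGGCGG and 1 of CCAAT, had no summit within 1000 bp, while the ARF start, with no match of any motif, had one in both libraries. The G and C share of the promoters ran from 46.3% at the upstream CDKN2C start to 74.3% at CDKN1A, around a median of 62.3% for all promoters.

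Values at a summit are given as pileup, the number of sequenced fragments that cover it, with its exact 95% Poisson interval. The pileups were recovered from the authors' fold enrichment and −log10 p-values, and the folds themselves are the authors' and are used only within a list. Local density is the number of reads in the 10 kb around a summit, its own reads included. The genome average was 57.96 reads per 10 kb in control cells and 51.76 in TCF19-OE cells, a depth of 0.893 of control. The median pileup over all summits was 12 reads in control cells and 13 in TCF19-OE cells. At TCF19 itself the control list had 0 summits and the TCF19-OE list 3. Whether the reads there came from the gene itself or from the transgene was not tested.

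**Figure D1:**
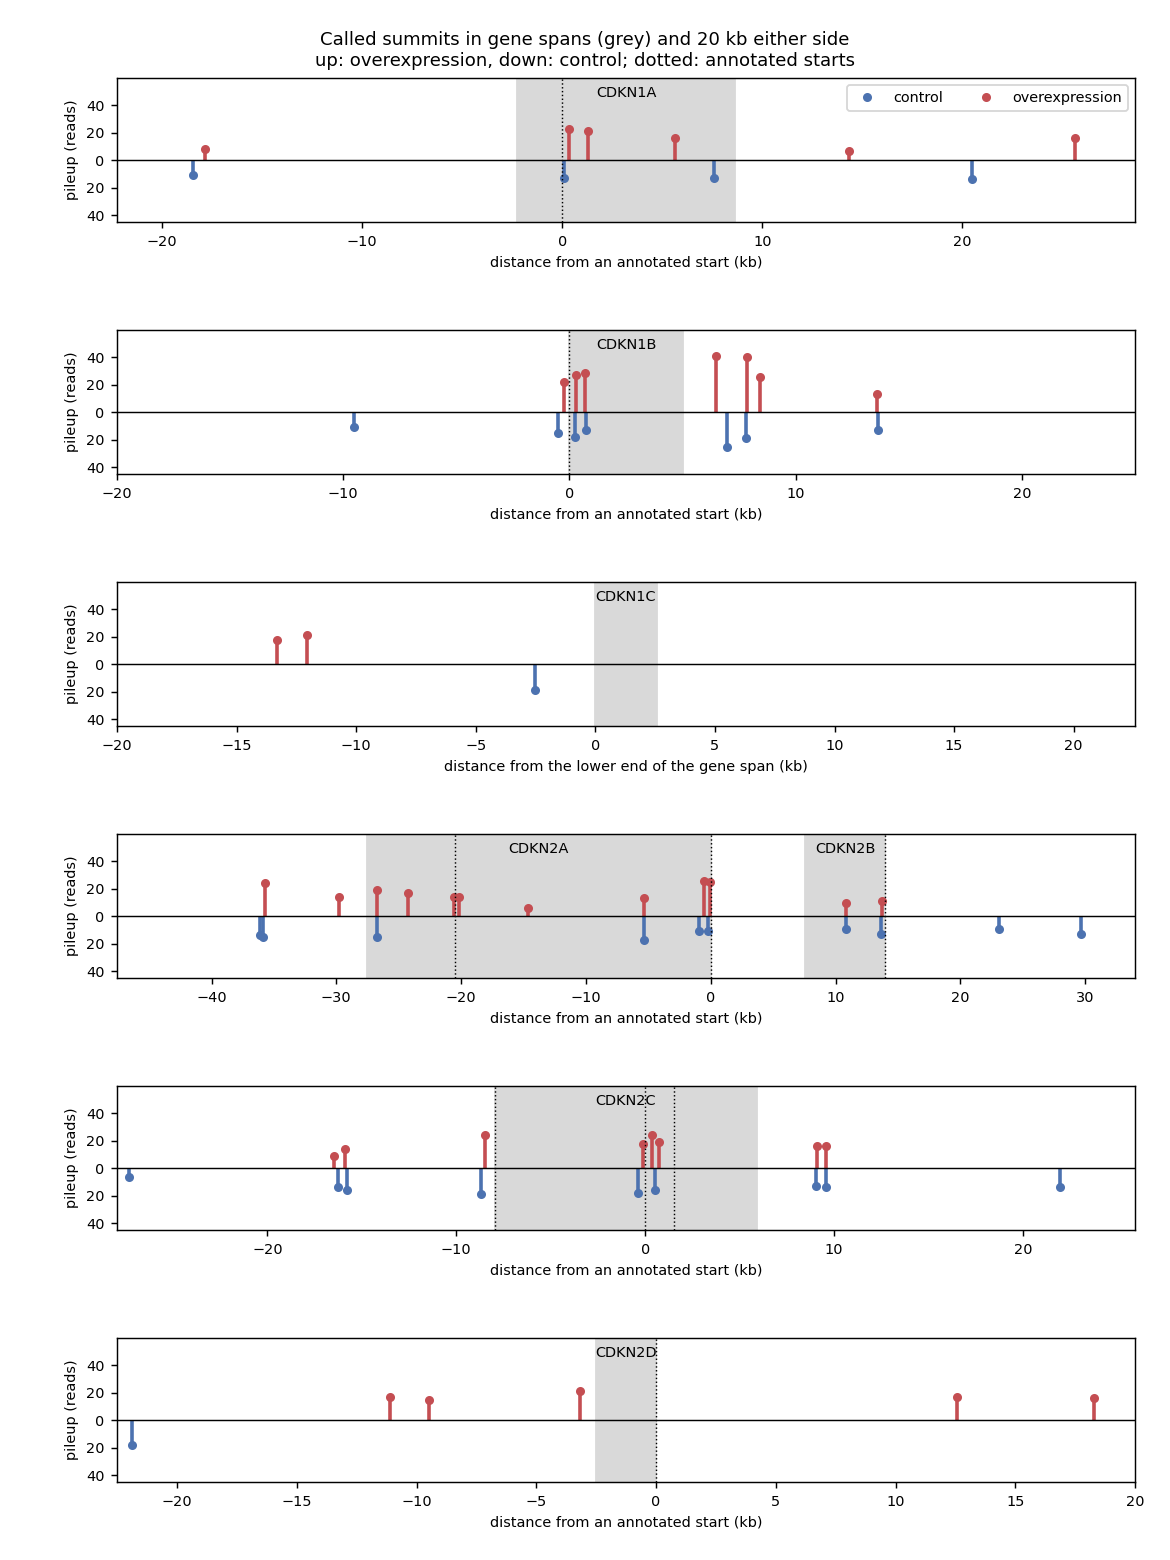
Each panel shows 1 window: the gene span in grey with 20 kb on either side, position in kb increasing with the chromosome coordinate, and summit pileup in reads upward for overexpression and downward for control (1 library each); dotted lines are annotated starts. CDKN1B, CDKN2A, CDKN2B and CDKN2C have several summits of both libraries at similar places, but each also has summits of 1 library alone. CDKN1A shares only its start interval, whereas CDKN1C and CDKN2D have no summit within the gene span.

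CDKN1A, the gene for p21, had a summit just downstream of its listed start in both libraries. It lies on chromosome 6 from 36676463 to 36687332, and its listed start is at 36678714, inside the span. The control summit, at 36678817, had 13 reads (6.9 to 22.2) and the TCF19-OE summit, at 36679072, had 23 (14.6 to 34.5). These intervals overlap, so the 2 libraries are not told apart at this depth. A further summit stood in TCF19-OE cells at 36679980, with 21 reads (13.0 to 32.1), and another at 36684371 with 16 (9.1 to 26.0). Control had a summit inside the gene at 36686302, with 13 reads (6.9 to 22.2). Of the 6 TCF19-OE intervals in the CDKN1A window, 5 overlapped no control interval, and of the 4 control intervals 3 overlapped none of the TCF19-OE list. Over the full lists, 67.4% of TCF19-OE intervals and 43.0% of control intervals overlapped one of the other list.

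CDKN1B, the gene for p27, carried the highest pileups of the 7 windows in both libraries, and they stood downstream of the gene rather than at its start. The gene spans 12717368 to 12722369 on chromosome 12. Past its end, in a cluster between 12723626 and 12726038, control had 25 reads (16.2 to 36.9) at 12724340 and 19 (11.4 to 29.7) at 12725166. TCF19-OE cells had 41 reads (29.4 to 55.6) at 12723852, 40 (28.6 to 54.5) at 12725198 and 26 (17.0 to 38.1) at 12725798. A pileup of at least 41 was reached by 0.394% of all TCF19-OE summits, and one of at least 25 by 1.51% of all control summits. The local density at the cluster was 352 to 360 reads per 10 kb in TCF19-OE cells, 6.8 to 6.96 times its genome average, against 156 in control cells, 2.69 times the average. The cluster lies nearer to other annotated starts than to CDKN1B: the start of the long noncoding RNA gene LOC105369663 is at 12725123 and that of APOLD1, a gene of endothelial signalling, is at 12725917. It can therefore not be assigned to CDKN1B from position.

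At the CDKN1B start itself each library had 3 summits within 1000 bp. Control had 15 reads (8.4 to 24.7) at 12716871, 18 (10.7 to 28.4) at 12717596 and 13 (6.9 to 22.2) at 12718091. TCF19-OE cells had 22 (13.8 to 33.3) at 12717135, 27 (17.8 to 39.3) at 12717647 and 29 (19.4 to 41.6) at 12718054. Every TCF19-OE value was above its control neighbour, and in each of these pairs the counting intervals overlap. The start of CDKN1B is 122 bp from the upper end of the span of GPR19, which encodes an orphan G protein-coupled receptor. The summits at 12716871 and 12717135 fall inside the GPR19 span. The summits at this start can therefore not be given to CDKN1B alone from position. One more pair, inside APOLD1 at 12730991 and 12730986, had 13 reads (6.9 to 22.2) in each library, a log2 ratio of 0.15 once scaled by depth and fragment length. Neither library had an interval seen alone there except control at 12707850, with 11 reads (5.5 to 19.7). Over the full lists, 43.0% of control and 67.4% of TCF19-OE intervals overlapped one of the other list.

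CDKN1C, the imprinted gene for p57, had no summit inside its span or within 1000 bp of its ends in either library. Its span on chromosome 11 runs from 2883218 to 2885775. The single control summit stood 2508 bp below it, at 2880710, with 19 reads (11.4 to 29.7). The 2 TCF19-OE summits stood more than 12 kb away, at 2869912 with 18 reads (10.7 to 28.4) and at 2871147 with 21 (13.0 to 32.1), at the start and inside of the noncoding gene KCNQ1DN. No interval was shared, where 43.0% of all control and 67.4% of all TCF19-OE intervals overlapped one of the other list. Local density was high, at 280 reads per 10 kb at the control summit (4.83 times the genome average). At that background 16 reads would have been needed for a call in TCF19-OE cells, so lower pileups at that site would not have been called. Scaled by depth and fragment length to TCF19-OE cells, the control pileup was 17.2 reads, above that number.

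CDKN2A and CDKN2B lie side by side on chromosome 9, at 21967752 to 21995324 and at 22002903 to 22009313. With 20 kb added on either side they form a region of 81.6 kb, in which control had 10 summits and TCF19-OE cells 12. The CDKN2A span held 4 and 8 of these, and the CDKN2B span 2 in each library. Set against windows of the same length tiled over chromosomes 1 to 22 and X, 9.19% had no summit in either list, assembly gaps included, or 6.57% once windows in empty stretches of over 1 Mb were left out, and the median was 4 in control cells and 2 in TCF19-OE cells. At least 10 control summits were found in 8.11% of these windows and at least 12 TCF19-OE summits in 0.975%. The absence of peaks that a deletion would leave was thus not seen here in either library. The longest stretch of the region without a summit of either list was 10.8 kb, between the ARF start and CDKN2B, and the longest one reaching into the region was 35.0 kb, past its upper edge. Stretches of that length or more made up 6.36% of the stretches on chromosome 9. With summits of at least 4-fold enrichment only, 5 control and 3 TCF19-OE summits stayed in the region and the longest stretch was 60.6 kb.

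The recovered local density cannot fall below the genome average at any summit, so it cannot show a loss of reads. The lowest value at a summit of the region was 58.0 reads per 10 kb in control cells and 54.0 in TCF19-OE cells, and the medians were 76.5 and 134.5. In the 1 Mb below and the 1 Mb above, the median local density at summits was 58.0 and 58.0 in control cells and 51.9 and 51.8 in TCF19-OE cells, at or next to the lowest value that the peak statistics can show. Summits were also sparser in these flanks, with 4.6 and 3.7 per 100 kb in control cells and 2.6 and 2.1 in TCF19-OE cells, against 12.3 and 14.7 in the region. A loss of 1 copy, or of both copies in a fraction of the cells, cannot be read from the lists.

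**Figure D2:**
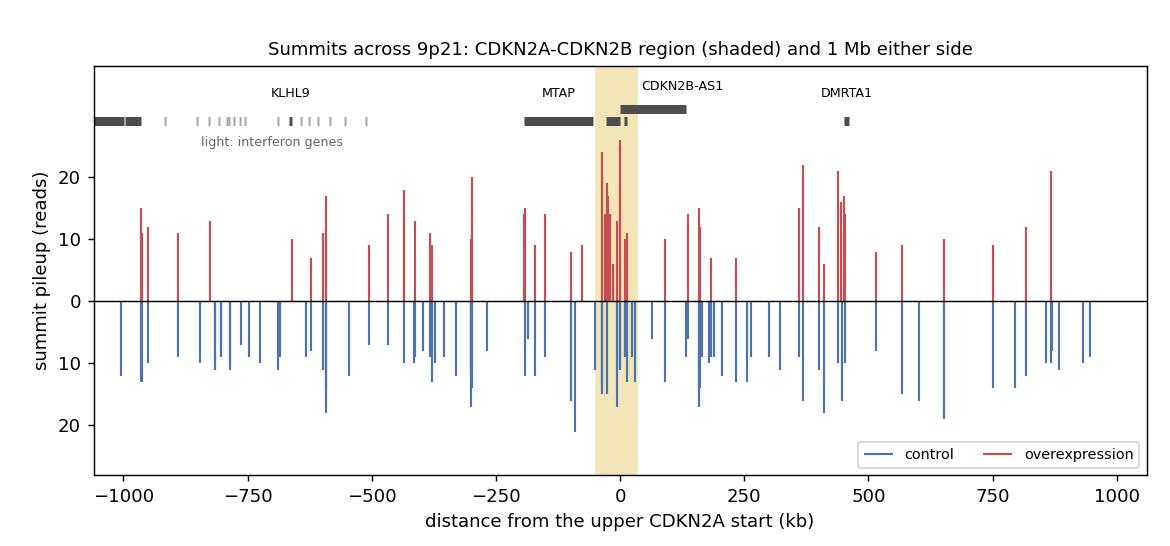
Summit pileup in reads (overexpression upward, control downward, 1 library each) against distance in kb from the ARF start of CDKN2A; bars are protein-coding genes and CDKN2B-AS1, and the CDKN2A-CDKN2B region with its 20 kb flanks is shaded. The shaded region holds 10 control and 12 overexpression summits, and no gap spans the 2 genes. Within CDKN2A, control has a gap of 21.4 kb.

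The 2 starts of CDKN2A had higher pileups or more summits in TCF19-OE cells. At the ARF start, 21995324, control had 11 reads (5.5 to 19.7) at 21995094 and 11 (5.5 to 19.7) at 21994385. TCF19-OE cells had 25 reads (16.2 to 36.9) at 21995305, 19 bp from the start, and 26 (17.0 to 38.1) at 21994789. The intervals again overlap between the libraries. The antisense long noncoding RNA gene CDKN2B-AS1 (ANRIL), which is linked to silencing at this locus, starts 533 bp from the ARF start, at 21994791, and these summits cannot be assigned to one of the 2 genes. At the p16 start, 21974857, TCF19-OE cells had 14 reads (7.7 to 23.5) on each side, at 21974767 and 21975156, in an interval that covers all 300 bases of the promoter printed above. Control had no summit between 21968574 and 21989983, a gap of 21.4 kb.

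Elsewhere in and around CDKN2A the libraries had several summits in common. Near the lower end of the gene, control had 15 reads (8.4 to 24.7) at 21968574 and TCF19-OE cells 19 (11.4 to 29.7) at 21968585. Between the 2 starts, at 21989983 and 21990012, the order was the other way round, with 17 reads (9.9 to 27.2) in control cells and 13 (6.9 to 22.2) in TCF19-OE cells. Below the gene the TCF19-OE summit at 21959591 had 24 reads (15.4 to 35.7) and, at 7.06-fold, the highest fold of TCF19-OE cells in the 7 windows. Control had 15 reads (8.4 to 24.7) there, at 21959441. Every control interval in the CDKN2A window overlapped a TCF19-OE interval, while 4 of the 10 TCF19-OE intervals had no counterpart, those at 21965541, 21971095, 21980669 and the p16 start. Over the full lists, 43.0% of control and 67.4% of TCF19-OE intervals had a counterpart.

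CDKN2B, the gene for p15, which TGF-beta signalling induces, had the same 2 summits in both libraries. Near its start at 22009305 control had 13 reads (6.9 to 22.2), at 22008966, and TCF19-OE cells 11 (5.5 to 19.7), at 22009060. Inside the gene both had a summit 1 bp apart, at 22006132 with 9 reads (4.1 to 17.1) in control cells and at 22006131 with 10 (4.8 to 18.4) in TCF19-OE cells. CDKN2B was the one gene of the 5 with start summits where the TCF19-OE pileup was not the higher. Control alone had summits beyond the start, inside CDKN2B-AS1, at 22018453 with 9 reads and at 22024991 with 13. CDKN2A and CDKN2B share similar coding sequence, and how reads with several possible positions were handled is not stated.

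Of 24 genes in and within 1 Mb of the region, CDKN2B-AS1 and otherwise protein-coding genes, 7 had a summit within 1000 bp of a start in control cells and 8 in TCF19-OE cells. Over all protein-coding genes the shares were higher, at 53.5% and 64.9%. The 24 include CDKN2A and CDKN2B themselves. MTAP, a methionine salvage gene that is often deleted together with CDKN2A, had 12 reads in control cells and 15 in TCF19-OE cells at its start. DMRTA1, on the other side, had 10 and 17. KLHL9 was the gene with one in TCF19-OE cells alone, with 10 reads. None of the 16 interferon genes of the cluster below MTAP had a start summit in either library.

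CDKN2C, the gene for p18, had start summits in both libraries at similar heights. It spans 50960745 to 50974634 on chromosome 1. At its middle start, 50968706, control had 18 reads (10.7 to 28.4) at 50968307 and 16 (9.1 to 26.0) at 50969226. TCF19-OE cells had 18 (10.7 to 28.4) at 50968597, 24 (15.4 to 35.7) at 50969049 and 19 (11.4 to 29.7) at 50969425. Below the gene, control had 19 reads (11.4 to 29.7) at 50960037 and TCF19-OE cells 24 (15.4 to 35.7) at 50960237. That site is 30 bp from the start of FAF1, a gene of apoptosis signalling that begins 478 bp from CDKN2C, so it cannot be given to CDKN2C alone. Farther out, summits near 50952441 and 50952906 inside FAF1, and near 50977729 and 50978276 past the end of CDKN2C, were called in both libraries, with 13 to 16 reads in control cells and 9 to 16 in TCF19-OE cells. All 4 TCF19-OE intervals in the window overlapped a control interval, where 67.4% of all TCF19-OE intervals did. Of the 7 control intervals 2 had no counterpart, where 43.0% of all control intervals had one.

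CDKN2D, the gene for p19, had no summit in its span or near its start. The libraries shared no interval in the window of CDKN2D, where 43.0% of all control and 67.4% of all TCF19-OE intervals were shared. It lies on chromosome 19 from 10566460 to 10568979. Control had 1 summit, near the edge of the window inside ATG4D, with 18 reads (10.7 to 28.4). TCF19-OE cells had 5, with 15 to 21 reads. The one closest to CDKN2D, at 10565792 with 21 reads (13.0 to 32.1), was 218 bp from the start of KRI1, a gene of ribosome assembly that begins 450 bp from the lower end of CDKN2D. Another stood 61 bp from the start of AP1M2, which encodes a subunit of an epithelial sorting adaptor, with 16 reads (9.1 to 26.0).

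Local density at summits differed among the genes. In control its median was 1.28 times the genome average at CDKN2B, 1.41 at CDKN2A and 1.67 at CDKN2C, and 4.38 at CDKN2D and 4.83 at CDKN1C, each from 1 summit. In TCF19-OE cells it was between 2.27 times at CDKN2C and 4.54 times at CDKN1B, which had 7 summits, and 4.02 times at CDKN2D, which had 5. The fold divides by local background, and at CDKN1C and CDKN2D folds were 2.31 and 2.39 in control cells and 2.3 to 3.58 in TCF19-OE cells.

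**Figure D3:**
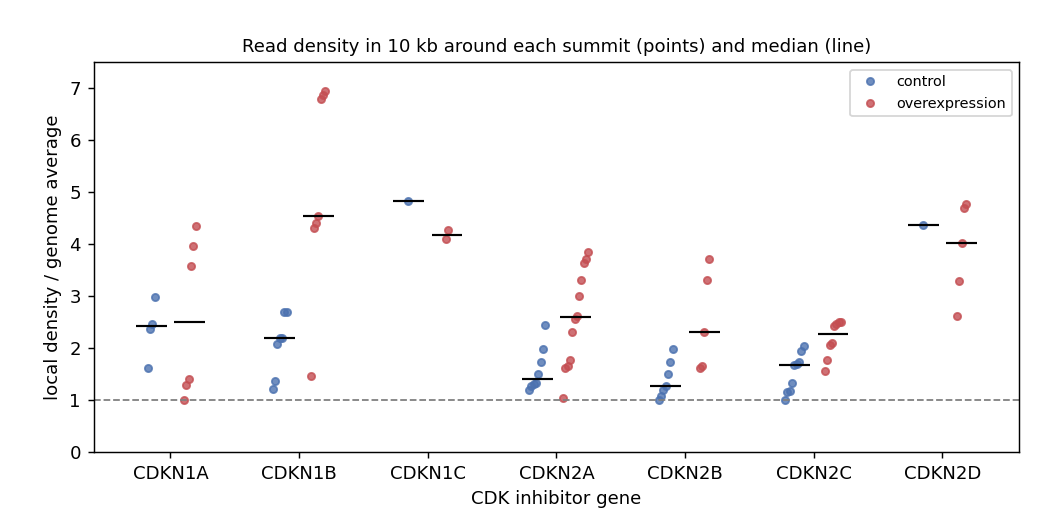
Reads in the 10 kb around each summit, divided by the library's genome average (dashed line at 1), for the 7 genes; points are summits, black lines medians, blue control and red overexpression (TCF19-OE, 1 library each). The summits at CDKN1C and CDKN2D stand at 2.63 times the average or more, and the highest points are the cluster downstream of CDKN1B.

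Counted over the 6 merged windows, 17 of 27 control intervals overlapped a TCF19-OE interval (63.0%, Wilson 95% interval 44.2 to 78.5), and 14 of 30 TCF19-OE intervals overlapped a control interval (46.7%, 30.2 to 63.9). Over the full lists these shares were 43.0% and 67.4%. The 16 TCF19-OE intervals without a counterpart were 5 at CDKN1A, 5 at CDKN2D, 4 at CDKN2A and 2 at CDKN1C, and there were none at CDKN1B, CDKN2B and CDKN2C. The 10 control intervals without one were 3 at CDKN1A, 2 at CDKN2B, 2 at CDKN2C and 1 each at CDKN1B, CDKN1C and CDKN2D. Neighbouring intervals share a locus, so these shares describe 6 places rather than independent sites.

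Where the libraries had summits within 300 bp of each other, their pileups could be set side by side after scaling by depth and fragment length. There were 19 such pairs, and the TCF19-OE pileup was the higher in 15, or 78.9%, with a median log2 ratio of 0.48. The counting intervals of the unscaled pileups overlapped in all 19, which is not a test of a difference. In all 68580 such pairs of the 2 lists it was higher in 59.8%, with a median log2 ratio of 0.15. Restricted to pairs within 1000 bp of a listed start, the TCF19-OE pileup was higher in 8 of 9 at the CDK inhibitor genes (88.9%, median 0.73) and in 81.2% of 8073 over all genes (median 0.39). With 9 pairs at 5 genes, the share is close to the background at starts. The largest ratios were at the ARF start (1.33), at 12718091 near the CDKN1B start (1.31) and downstream of CDKN1B (1.22). Local density was also higher in TCF19-OE cells at these pairs, and the ratios are not scaled by it. In reads per 10 kb, control first, it was 101 and 172, 121 and 235, and 156 and 352. Pairs with a lower TCF19-OE pileup were 2 at CDKN2C, 1 between the CDKN2A starts and 1 at the CDKN2B start, with ratios of -0.49 to -0.05.

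The proteins that the inhibitors act on and those that set their levels were described by the same start rule. Of 10 partner genes (CDKs, cyclins and RB1), 5 had a start summit in control cells and 8 in TCF19-OE cells. CDK4 and CDK6, the targets of the INK4 proteins, had one in TCF19-OE cells alone, with 16 reads (9.1 to 26.0) and 22 (13.8 to 33.3), and so did CCND2 (cyclin D2) with 27 (17.8 to 39.3). CCND1 (cyclin D1) and RB1 had none in either library. Of 11 regulators, 8 had one in control cells and all 11 in TCF19-OE cells, where the background is 53.5% and 64.9% of genes. The 3 in TCF19-OE cells alone were MYC with 19 reads (11.4 to 29.7), KDM6B, a demethylase of H3K27, with 16 (9.1 to 26.0), and CKS1B, a cofactor in the degradation of p27, with 12 (6.2 to 21). For 6 genes of these lists no start was listed and both ends of the span were used, so a summit counted there need not lie at a start. Over all genes, 16.1% had a start summit in TCF19-OE cells alone and 4.75% in control cells alone. None of the 7 CDK inhibitors was of either kind.

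**Figure D4:**
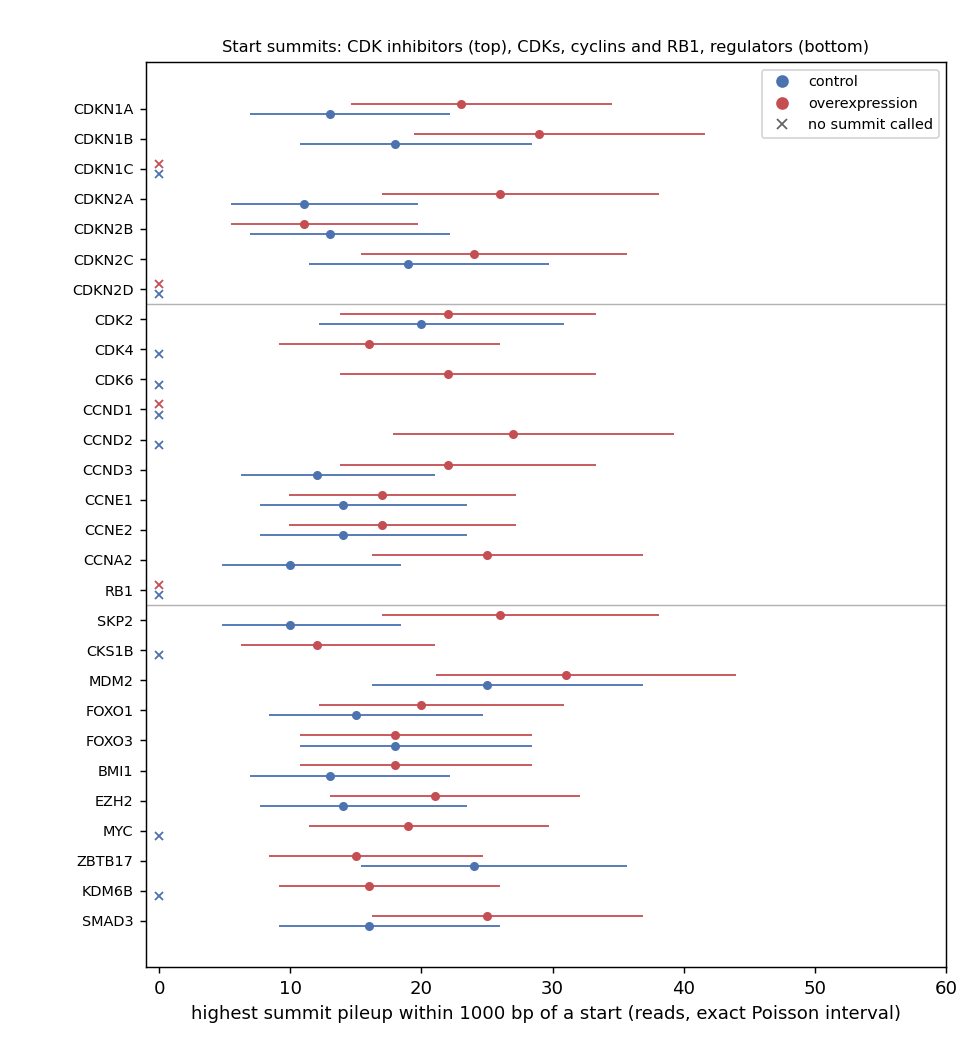
The highest summit pileup within 1000 bp of a listed start, or of either gene end where none is listed (reads, with exact 95% Poisson intervals) for the 7 CDK inhibitors, 10 partners and 11 regulators, blue for control and red for overexpression (TCF19-OE, 1 library each). The blue and red values of a gene can come from different starts or ends, as at CDKN2C, CCND3, SMAD3 and ZBTB17. A cross marks a gene without a called summit, which is not a pileup of 0; SKP2 and CCNA2, at 10 reads in control cells, stand at 26 and 25 in TCF19-OE cells, while CDKN2B stands at 13 and 11.

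SKP2, the ubiquitin ligase subunit that recognises p27, had 10 reads (4.8 to 18.4) in control cells and 26 (17.0 to 38.1) in TCF19-OE cells. MDM2, the partner of ARF, had 25 (16.2 to 36.9) and 31 (21.1 to 44.0). BMI1 and EZH2, Polycomb proteins that silence the INK4 locus in many cells, had 13 (6.9 to 22.2) and 14 (7.7 to 23.5) in control cells and 18 (10.7 to 28.4) and 21 (13.0 to 32.1) in TCF19-OE cells. ZBTB17, a partner of MYC in repression of CDKN1A and CDKN2B, had its highest summits at opposite ends of its span on chromosome 1. Control cells had 24 (15.4 to 35.7) at 15942252 and TCF19-OE cells 15 (8.4 to 24.7) at 15976071. These are different sites, so their heights give no direction of change. No start of ZBTB17 was listed, so the control summit counted for it may not lie at its start. At SKP2, MDM2, BMI1 and EZH2 the intervals overlap between the libraries.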

How the data were processed

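ChIP-seq peaks of 2 libraries, 1 per group by the genotype label, were used. Reads were aligned with BWA 0.7.12 and peaks called with MACS2 2.1.0 on hg38, per the submitters' processing notes; parameters and duplicate handling are not stated. Per the file columns, the authors deposited for each summit a score, the fold enrichment as a ratio, and p-value and q-value as −log10 (lowest q entry 1.3, a q-value of 0.05). The score was not used.

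Pileups and local densities were solved from deposited folds and −log10 p-values with scipy 1.17.1 (misfit at most 0.001; 99.997% and 99.996% of 170334 control and 112212 overexpression summits), with fragment lengths of 273 and 276 bp. The solver and the counter were tested on simulated data. Intervals cover counting error only.

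Gene spans and starts came from RefSeq GRCh38.p14 tables. Starts were listed for 15813 of 19974 genes; both ends of the span stood in for the rest, CDKN1C, CDK2, CCND1, CCND2, CCNE2, MYC and ZBTB17 included. The summits named are all in the 7 windows, neighbours within 1 Mb of 9p21, and list genes called in 1 library. SKP2, CCNA2, RB1, CCND1, MDM2, BMI1, EZH2 and ZBTB17 were named after their values were seen. The genes and lists were chosen with earlier results of these data known. One gene of the regulator list is not reported here, and the counts are over the other 11. Of 6 endometrial epithelial markers, 3 had a start summit in each library, where 53.5% of all genes did in control and 64.9% in overexpression. Peak lists hold no expression.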

Additional observations from a re-analysis of the deposited data

How the results depend on the processing

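No paired analysis was possible because each group had 1 library, and leaving out a replicate was not possible for the same reason. Of the alternatives, 60 values stayed within 1.5 times the reported one and 19 did not. A threshold on fold of at least 4 moved most: window summits went from 32 to 16 in control and from 40 to 13 in TCF19-OE cells, genes with a window summit from 7 to 4 in control, genes with a start summit from 5 to 3 in each library, partners from 5 to 0 and from 8 to 3, regulators from 8 to 3 and from 11 to 3, and 9p21 summits from 10 to 5 and from 12 to 3. With it, 17.0% of windows were free of summits in both lists (9.19% otherwise), and the stretch reaching into 9p21 was 60.6 kb, as it was with a −log10 q of at least 2 (60.6 kb, against 35.0 kb). A 50 kb flank gave 54 control window summits. Gene spans alone gave 12 control and 18 TCF19-OE summits, and 6 control summits at 9p21, by construction of a smaller window. Starts within 500 bp left 3 partners in control. In each setting 9p21 held summits of both libraries. A call needs more reads where local background is higher, and local background is known only at called summits. It was not measured at the ends of CDKN1C or the start of CDKN2D. The lack of a summit there means only that none was called.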
